A study of Mus musculus with 2 samples.

Results

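The 7 genes described here are Scx, Tnmd, Osr1, Osr2, Lum, Dcn and Kera, 7 of the 56982 features counted in each of 2 single-cell libraries of mouse embryonic hindlimb. They were chosen by name as genes of tendon and connective tissue, and the rule used no measured value. The working name for the set was tendon and connective tissue regulators, but only Scx, Osr1 and Osr2 encode transcription factors. Tnmd encodes a membrane glycoprotein, and Lum, Dcn and Kera encode matrix proteoglycans.

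Each library came from the hindlimb of 1 FVB mouse embryo at E11.5, about the middle of gestation, dissociated with collagenase II and captured on droplets that read the tail end of poly(A) RNA. The dual-enSERT-1 embryo carried at the H11 locus a ZRS-mCherry reporter and a ZRS404G>A-eGFP reporter, and the dual-enSERT-2 embryo carried there B-ZRS-mCherry, SI and ZRS404G>A-eGFP-B, as the genotype label writes them. The ZRS is the limb enhancer of Shh, and both embryos were transgenic, so no untreated control was part of the comparison. With 1 library per group, embryo, transgene, dissection and library cannot be told apart, no difference between the libraries can be tested, and all intervals below cover counting error only.

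Scx encodes scleraxis, a basic helix-loop-helix factor that marks the progenitors of tendon and ligament from early limb stages, and Tnmd (tenomodulin) is a marker of differentiating tendon cells. Osr1 and Osr2 are zinc finger factors of the odd-skipped family that mark irregular connective tissue of the limb, including the fibroblasts around forming muscle. Lumican, decorin and keratocan, the products of Lum, Dcn and Kera, are small leucine-rich proteoglycans that bind collagen fibrils. Sox9, the chondrocyte factor that overlaps with Scx in progenitors of the tendon-to-cartilage attachment, is given beside the members.

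After filtering, dual-enSERT-1 kept 16041 of 20508 barcodes and dual-enSERT-2 kept 6472 of 8885, and the full barcode lists shared 49 sequences. Clusters were named by fixed markers without using the members. Mesenchyme-like cells made up 81.8% of dual-enSERT-1 (13115 cells, median of 14569 UMIs) and 58.6% of dual-enSERT-2 (3793 cells, median of 27366 UMIs). In both, all 9 mesenchyme markers reached 5 CPM (UMIs of a gene per 1000000 UMIs pooled over a group of cells) and none of the 10 muscle, 8 endothelial or 9 macrophage markers did. Some markers of other lineages reached that level too. Of 6 neuron markers 4 did in dual-enSERT-1 (51.9 CPM summed) and 2 in the other library (35.6 CPM summed). Of 11 ectoderm markers 2 did, in dual-enSERT-1 only. The perivascular and melanocyte lists had 1 such marker each in either library. The hindlimb check held, with 5 of 5 hindlimb genes at 5 CPM or more and the forelimb gene Tbx5 at 0.278 and 0.00927 CPM. Summed erythroid marker RNA in the mesenchyme was 317 CPM in dual-enSERT-1 and 4278 CPM in dual-enSERT-2, and its part in the values below was not tested. One mesenchyme cluster of each library (630 and 763 cells) had the neuronal marker Dcx and no mesenchyme marker among its 10 leading genes. The overall differences of Scx, Osr1, Osr2 and Lum between the libraries are therefore given with and without these clusters. The other results between the libraries keep them.

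Of the 7 genes, 3 lie in 1 stretch of chromosome 10 (GRCm39, GENCODE annotation, all on the plus strand). Dcn spans 97315275 to 97358155, Lum spans 97400990 to 97408577 and Kera spans 97442728 to 97449554, with 42.8 kb between Dcn and Lum and 34.2 kb between Lum and Kera. Epyc, another proteoglycan gene, follows 30.3 kb further on. Osr2 (35296196 to 35303673) and Scx (76341563 to 76344281) are both on the plus strand of chromosome 15, Osr1 is on chromosome 12 (9538061 to 9631513, plus) and Tnmd on X (132751720 to 132766326, plus). Scx lies inside the ribosome biogenesis gene Bop1 (76337155 to 76362079), on the opposite strand, and overlaps none of its exons.

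In dual-enSERT-1 mesenchyme the members ranked Scx (89.2 CPM, interval 87.9 to 90.5), Osr2 (53.4, 52.4 to 54.4), Osr1 (26.6, 25.9 to 27.3), Lum (12.98, 12.5 to 13.5), Dcn (4.01, 3.74 to 4.30), Kera (0.615, 0.512 to 0.732) and Tnmd (0.181, 0.127 to 0.249). Each neighbouring pair in that order had intervals that did not overlap. In dual-enSERT-2 the order was nearly the same at lower levels: Scx 24.97 CPM (24.04 to 25.9), Osr2 10.0 (9.45 to 10.7), Osr1 4.30 (3.92 to 4.71), Lum 3.02 (2.70 to 3.37), Dcn 0.778 (0.621 to 0.964), Tnmd 0.065 (7 UMIs) and Kera 0.00927 (1 UMI). Sox9 was above every member, at 239 and 88.3 CPM. With 1 tag counted per molecule, these levels are not divided by gene length, and whether they depend on it was not tested. Tnmd amounted to 37 and 7 UMIs in all mesenchyme-like cells, so this late tendon marker was barely detected at this depth.

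To compare shares of cells, each cell was thinned to 5000 UMIs, which kept 12985 and 3756 mesenchyme-like cells. Scx was then detected in 30.8% of them in dual-enSERT-1 (30.01 to 31.6). The share was 10.7% (9.71 to 11.7) in dual-enSERT-2. Before thinning it was 52.9% and 36.6%. In erythroid-like cells, which should lack it and had median depths of 19408 and 27305 UMIs, the thinned share was 0.816% and 0.123%. Osr2 was found in 16.6% and 3.59% of thinned mesenchyme-like cells (erythroid-like 0.816% and 0.184%), Osr1 in 10.2% and 2.21%, and Lum in 4.53% and 1.33%. The share was 1.85% and 0.346% for Dcn and 0.216% and 0.0266% for Kera. Tnmd was found in 11 cells of dual-enSERT-1 and in 0 of 3756 in dual-enSERT-2, which allows a share of cells with a UMI of up to 0.0799% at 3 cells of the total (exact upper bound 0.0982%). A single UMI was carried by 62.3% and 81.3% of the Scx cells, 68.8% and 92.8% of the Osr1 cells and 49.6% and 84.4% of the Osr2 cells.

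**Figure D1:**
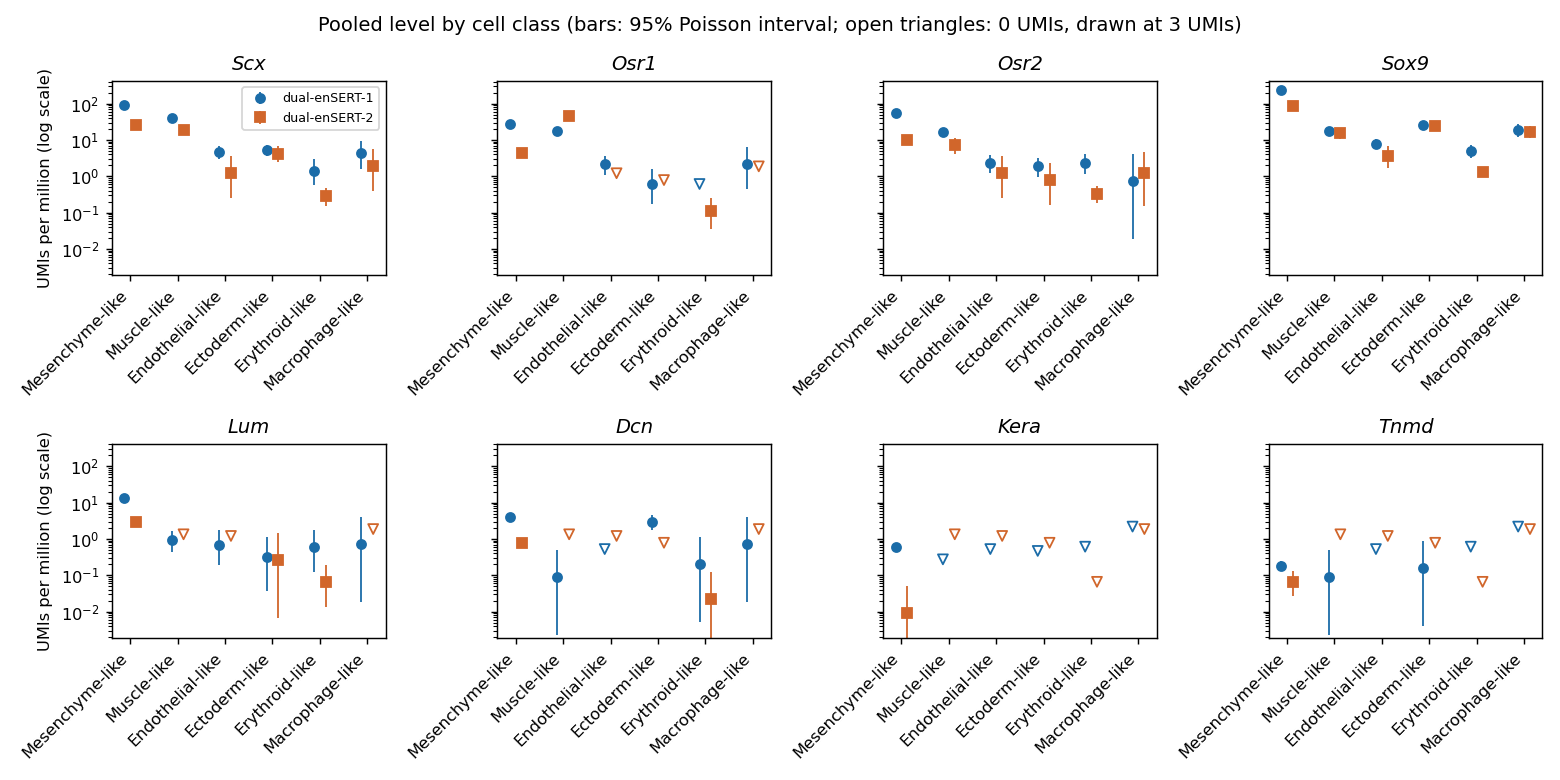
Pooled level of the 7 genes and Sox9 (vertical axis, CPM on a log scale) in each of 6 cell classes (horizontal axis) of dual-enSERT-1 (circles) and dual-enSERT-2 (squares), with 95% Poisson intervals. Open triangles mark classes with 0 UMIs, drawn at the level of 3 UMIs. Scx, Osr1, Osr2 and Lum are highest in mesenchyme-like cells apart from Osr1 in dual-enSERT-2, where muscle-like cells stand at 46.1 CPM.

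Outside mesenchyme, the members were mostly low in the named classes other than muscle-like cells. Scx stood at 4.56 CPM in endothelial-like, 5.15 in ectoderm-like, 4.38 in macrophage-like and 1.43 in erythroid-like cells of dual-enSERT-1, which puts mesenchyme 62.4-fold (30.3 to 155) above erythroid-like cells. In both libraries Scx in ectoderm-like cells lay above the erythroid-like level, with intervals that did not overlap. In dual-enSERT-2 it was 4.19 CPM (2.39 to 6.80) against 0.286 CPM (0.152 to 0.489). Mesenchyme was 5.96-fold (3.66 to 10.4) above ectoderm-like cells there. Dcn showed 2.97 CPM (1.79 to 4.63, 19 UMIs) in ectoderm-like cells of dual-enSERT-1, an interval that reaches the mesenchyme level, and 0 UMIs in those of dual-enSERT-2. Kera was found in no other named class of either library, which says little because these classes held few UMIs in all. Its mesenchyme level in dual-enSERT-1 was between 0.281 and 2.24 times the level that 3 UMIs would give in those classes. In dual-enSERT-2 it was at most 0.140 times that level. The shallow cells left unnamed (1437 and 633) held Scx at 62.5 and 28.7 CPM.

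Muscle-like cells were the exception to the mesenchymal pattern. These cells, named by markers such as Pax3, Lbx1 and Met of migrating muscle precursors, numbered 549 and 68. Osr1 was 17.9 CPM (15.5 to 20.6) in those of dual-enSERT-1, or 0.674 times (0.581 to 0.777) the mesenchyme level. In dual-enSERT-2 it was 46.1 CPM (37.6 to 55.9), or 10.7 times (8.58 to 13.3) the mesenchyme level of the same library. Unthinned, 112 of 549 (20.4%) and 33 of 68 (48.5%) muscle-like cells had an Osr1 UMI, with at most 8 UMIs in any cell. At 5000 UMIs the share was 6.95% (4.83 to 9.62) and 22.1% (12.9 to 33.8), while none of 245 and 1632 erythroid-like cells had one. Scx reached 39.6 and 18.8 CPM in muscle-like cells and Osr2 16.7 and 7.16 CPM, each below the mesenchyme of its library in dual-enSERT-1. In dual-enSERT-2 the muscle-to-mesenchyme ratio was 0.753 (0.541 to 1.02) for Scx and 0.714 (0.406 to 1.16) for Osr2. Osr1 thus differed from both in being above mesenchyme in 1 library.

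The muscle-like cells of the libraries were also unlike each other in myogenic stage markers. Myod1 and Myog, the factors of committed myoblasts, stood at 87.7 and 108 CPM in dual-enSERT-1. In dual-enSERT-2 they stood at 1.34 CPM (3 UMIs) and 0 UMIs. Pax3 was 444 and 717 CPM. Within dual-enSERT-1, Osr1 was 23.0 CPM (19.3 to 27.1) in the 335 muscle-like cells without a Myod1 or Myog UMI and 11.9 CPM (9.06 to 15.4) in the 214 with one. The corresponding cells of dual-enSERT-2 without either gene (66 cells) held 45.3 CPM (36.8 to 55.2). Mesenchyme markers summed to 335 CPM in muscle-like cells with an Osr1 UMI and 258 CPM in those without in dual-enSERT-1, and to 276 and 341 CPM in dual-enSERT-2, against 2334 and 2107 CPM in mesenchyme. Muscle-like cells with Osr1 therefore held more mesenchyme marker RNA than the others in dual-enSERT-1 and no more in dual-enSERT-2. They were also deeper, with medians of 24906.5 against 19449 UMIs in dual-enSERT-1 and 31028 against 28922 UMIs in dual-enSERT-2. What part mesenchyme RNA has in their Osr1 counts was not tested. The Osr1 level in muscle-like cells of dual-enSERT-1 fell to 10.4 CPM when the 10% of cells with the most UMIs were left out, and that of dual-enSERT-2 stayed between 46.1 and 56.9 CPM under every alternative run.

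**Figure D2:**
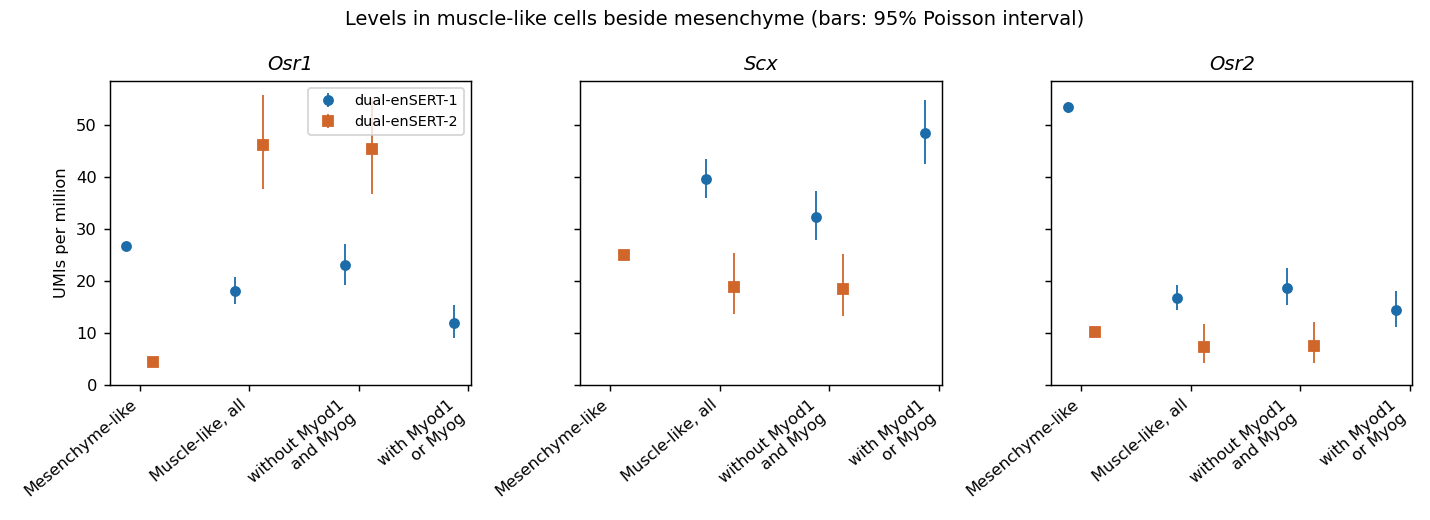
Osr1, Scx and Osr2 (vertical axis, CPM) in mesenchyme-like cells, all muscle-like cells and muscle-like cells without or with a Myod1 or Myog UMI, in dual-enSERT-1 (circles) and dual-enSERT-2 (squares), with 95% Poisson intervals. The 2 cells with either gene in dual-enSERT-2 are not drawn. Osr1 is the gene whose muscle-like level in dual-enSERT-2 (46.1 CPM) lies above the mesenchyme (4.30 CPM).

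Position along the limb was read from other genes in each thinned cell. A cell with a UMI of Hoxa13 or Hoxd13, genes of the future foot, was called distal, one with Meis1 or Meis2 and neither of these was called proximal, and the rest intermediate. Scx, Osr1 and Osr2 were all higher proximally in both libraries by the 2-fold rule, which asks for a ratio of 2 or more after adding 1 CPM, in features with at least 5 CPM in either group. Of all measured features 1.33% passed it upwards in both libraries and 0.986% downwards. Lum, Dcn, Kera and Tnmd missed 5 CPM in dual-enSERT-2 and could not be counted.

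The proximal-to-distal ratio was largest for Osr1 in dual-enSERT-1 and for Osr2 in dual-enSERT-2. Osr1 in dual-enSERT-1 was 73.0 CPM in proximal, 20.3 in intermediate and 4.47 in distal cells, a proximal-to-distal ratio of 16.3 (14.6 to 18.3). In dual-enSERT-2 it was 9.06, 1.49 and 1.44 CPM, a ratio of 6.28 (4.22 to 9.75). Osr2 differed in shape between the libraries: in dual-enSERT-1 it was as high in intermediate (82.1 CPM) as in proximal cells (78.4 CPM) and low in distal cells (8.05 CPM), while in dual-enSERT-2 it ran 17.4, 6.96 and 2.11 CPM. Its proximal-to-distal ratio was 9.73 (8.94 to 10.6) and 8.27 (5.96 to 11.8), the latter with an interval that overlaps that of Osr1. Scx was 127, 114 and 40.3 CPM in dual-enSERT-1, with a sizeable distal level. The values in dual-enSERT-2 were 39.1, 17.4 and 14.1 CPM. The proximal-to-distal ratio of Scx was 3.15 (3.01 to 3.29) and 2.77 (2.42 to 3.17).

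Of the proteoglycan genes, Dcn ran from high to low along the same axis in both libraries and Lum in dual-enSERT-1. Lum was 23.7 CPM in proximal, 15.7 in intermediate and 3.53 in distal cells there, a ratio of 6.70 (5.87 to 7.68), and Dcn was 9.53, 3.29 and 1.29 CPM. In dual-enSERT-2 Dcn was 1.09, 0.645 and 0.444 CPM (44, 32 and 8 UMIs), a ratio of 2.47 (1.15 to 6.07). Lum was 2.71, 3.33 and 2.88 CPM there, a ratio of 0.941 (0.670 to 1.34). Whether the Lum difference between the libraries exceeds the spread between embryos was not tested. Kera had 38, 75 and 11 UMIs in proximal, intermediate and distal cells of dual-enSERT-1. Tnmd ran the other way on very few molecules, with 3 UMIs in proximal, 11 in intermediate and 23 in distal cells there, and 1, 2 and 4 UMIs in the other library.

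Among listed genes of the same tissues, 3 of 9 measured tendon and ligament genes were 2-fold higher proximally in both libraries, among them the collagens Col1a2 and Col3a1, and none was lower. Of 10 measured muscle connective tissue genes 3 were higher, Cxcl12, Meox2 and Ebf2, and none lower. The chemokine gene Cxcl12 differed by 2.97 and 3.18 on the log2 scale. The median log2 difference was 1.21 and 0.82 for the tendon list and 1.07 and 0.62 for the muscle connective tissue list. Over all features measured it was -0.0024 and 0.0034, with 1.33% higher and 0.986% lower in both libraries. The shift was not particular to these lists. Medians were 0.90 and 0.62 for 3 joint interzone genes and 0.89 and 0.095 for 6 cartilage genes. They were 1.10 and 0.016 for 5 hindlimb identity genes, and 0.16 and -0.023 for 11 TGF-beta signal genes.

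Along the anterior-posterior axis, cells were ordered by an index of posterior (Hand2, Hoxd12, Tbx2) minus anterior (Pax9, Alx1, Alx4) genes detected. An index of 0 was called middle, which takes in any cell with none of these genes detected. Of the members that could be counted in both libraries (Scx, Osr1 and Osr2), Osr1 was 2-fold lower in anterior than in posterior cells of both libraries, a difference that 0.614% of measured features showed, while 0.537% were higher and no member was. It was 6.01 CPM in the 597 anterior cells, 25.5 in middle and 29.3 in the 6886 posterior cells of dual-enSERT-1. In dual-enSERT-2 the levels were 0.369 CPM (2 UMIs in 198 cells), 2.72 and 6.74 CPM, an anterior-to-posterior ratio of 0.0548 (0.00661 to 0.200). The order held within proximal cells, where Osr1 rose from 16.6 CPM in anterior through 61.3 in middle to 90.7 in posterior cells of dual-enSERT-1. In dual-enSERT-2 it ran from 0.980 (2 UMIs) through 5.77 to 13.6 CPM.

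Dcn had the same order at low levels, with 0.726 CPM (7 UMIs) in anterior, 3.76 in middle and 4.45 in posterior cells of dual-enSERT-1. In dual-enSERT-2 it was 0 UMIs, 0.511 CPM and 1.20 CPM. Scx and Osr2 were highest in middle cells of dual-enSERT-1, at 108 and 72.2 CPM, against 65.3 and 27.1 in anterior and 77.4 and 41.8 in posterior cells. This order did not hold within each proximal-distal group. In proximal cells Scx was 139 CPM in anterior and 99.8 CPM in posterior cells. Osr2 was 64.1 and 57.3 CPM there, with overlapping intervals. In intermediate cells posterior levels were highest, at 126 against 113 CPM in middle cells for Scx. For Osr2 they were 89.0 against 85.2 CPM, with overlapping intervals. In dual-enSERT-2 Osr2 was 1.29 CPM (7 UMIs) in anterior, 11.6 in middle and 9.15 in posterior cells, and Scx 12.6, 25.8 and 25.4 CPM. Lum was lower in anterior cells of dual-enSERT-1 (1.87 against 12.96 CPM in posterior cells), whereas in dual-enSERT-2 it was 2.22 and 3.17 CPM with a ratio of 0.698 (0.353 to 1.26). The anterior difference of Scx in dual-enSERT-1, -0.24 on the log2 scale, turned to 0.68 when only the extremes of the index (41 anterior cells) were used. Of 9 measured tendon and ligament genes 2 were 2-fold higher in anterior cells of both libraries, Bgn and Col1a2, and 1 was lower. Of 11 measured muscle connective tissue genes 1 was higher, Gata6, and 1 was lower, Tbx3. Over all measured features 0.537% were higher and 0.614% lower.

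**Figure D3:**
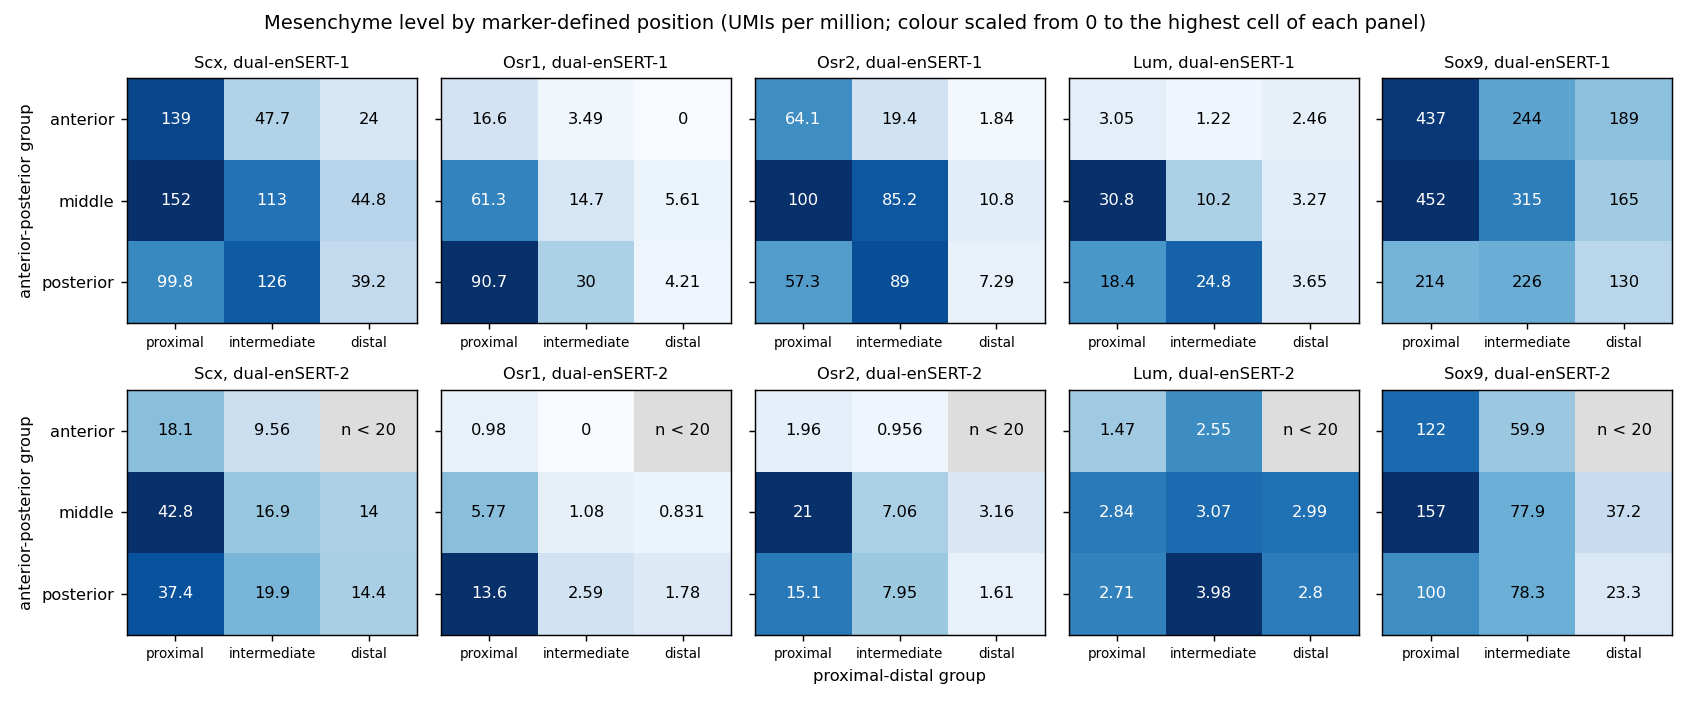
Level of Scx, Osr1, Osr2, Lum and Sox9 (number and colour, CPM, each panel coloured from 0 to its own maximum) in mesenchyme-like cells by anterior-posterior group (rows) and proximal-distal group (columns) of dual-enSERT-1 (top) and dual-enSERT-2 (bottom). The anterior distal group of dual-enSERT-2 has under 20 cells and is blank. Osr1 peaks in the posterior proximal group of both libraries (90.7 and 13.6 CPM), while Scx peaks in the middle proximal group (152 and 42.8 CPM).

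Cells with a UMI of Lmx1b, the dorsal limb factor, numbered 4021 and 378. None of Scx, Osr1 and Osr2, the members that could be counted in both libraries, was 2-fold higher or lower in them in both, as were 0.0767% and 0.0192% of measured features. In dual-enSERT-1 Lum was 24.0 CPM with and 7.92 CPM without Lmx1b, a ratio of 3.03 (2.80 to 3.27), but 3.48 and 2.98 CPM in dual-enSERT-2 (ratio 1.17, 0.798 to 1.66). Osr2 was 69.0 against 46.3 CPM in dual-enSERT-1 and 22.8 against 8.74 CPM in dual-enSERT-2. Osr1 was 1.56 times (1.48 to 1.64) and 1.53 times (1.15 to 1.99) higher with Lmx1b, and Scx 1.10 and 1.60 times higher.

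Co-detection was read at 5000 UMIs as the share of mesenchyme-like cells with both genes, beside the product of the single shares. Of the 6 pairs among Scx, Osr1, Osr2 and Sox9, 3 lay above this expected share in both libraries and none lay below it in both. The strongest was Scx with Osr2: 1267 cells of dual-enSERT-1 (9.76%, expected 5.13%, ratio 1.90) and 39 cells of dual-enSERT-2 (1.04%, expected 0.384%, ratio 2.71, 1.93 to 3.69). Put as conditional shares, 58.6% of Osr2 cells of dual-enSERT-1 had Scx, against 25.2% of cells without Osr2. Osr2 with Sox9 had ratios of 1.41 (1.34 to 1.48) and 2.34 (1.87 to 2.89), and Scx with Sox9 1.18 (1.13 to 1.22) and 1.56 (1.33 to 1.81). Both of these pairs were above the expected share within proximal and within intermediate cells too, in each library, as was Scx with Osr2. Scx with Osr1 had ratios of 1.35 (1.24 to 1.46) and 1.69 (0.948 to 2.79, 15 cells). That excess was not seen within proximal cells of dual-enSERT-1, where the ratio was 0.905 (0.806 to 1.01). In intermediate cells of dual-enSERT-1 it was 1.47 (1.29 to 1.66). In proximal cells of dual-enSERT-2 it was 1.32 (0.705 to 2.25, 13 cells).

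Osr1 and Sox9 met less often than expected in 1 library. In dual-enSERT-1, 31.7% of Osr1 cells had Sox9, against 48.4% of cells without Osr1 (ratio of observed to expected 0.679, 0.617 to 0.746). In dual-enSERT-2 the ratio was 0.997 (0.625 to 1.51, 22 cells), which at this number of cells does not tell whether the genes separate there. Within proximal cells the ratio was 0.544 (0.478 to 0.615) and 0.715 (0.409 to 1.16).

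The 2 odd-skipped genes overlapped differently in the proximal and intermediate groups. Over all mesenchyme, Osr1 and Osr2 met in 358 cells of dual-enSERT-1, 1.62 times (1.46 to 1.80) the expected number. Within proximal cells they met less often than expected, at 0.622 times (0.515 to 0.744, 115 cells), and within intermediate cells more often, at 2.21 times (1.94 to 2.51, 228 cells). Of the Osr1 cells, 14.15% had Osr2 in the proximal group and 52.5% in the intermediate group. The same ratios in dual-enSERT-2 were 0.803 (0.166 to 2.34, 3 cells) and 4.38 (0.531 to 15.8, 2 cells), too few to place on either side.

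The overlap was also read over the combinations of all 4 genes. Cells with Scx, Osr2 and Sox9 but no Osr1 made up 5.31% of dual-enSERT-1 mesenchyme (689 cells, expected 2.15%) and 0.639% of dual-enSERT-2 (24 cells, expected 0.0998%). Osr2 without any of the other 3 was rarer than expected, at 1.68% against 5.51% and 1.01% against 2.30%. Osr1 with Sox9 alone was at 1.12% against 2.75%, and in dual-enSERT-2 at 0.426% against 0.506%. The largest ratios of observed to expected share in dual-enSERT-1 belonged to combinations with Osr1. All 4 genes together had a ratio of 3.47 (110 cells, 0.847% against 0.244%). Scx, Osr1 and Osr2 without Sox9 had 3.40 (123 cells), against 2.47 for Scx, Osr2 and Sox9 without Osr1. In dual-enSERT-2 the combinations with Osr1 and Osr2 rested on 2 cells with all 4 genes and 3 cells without Sox9.

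**Figure D4:**
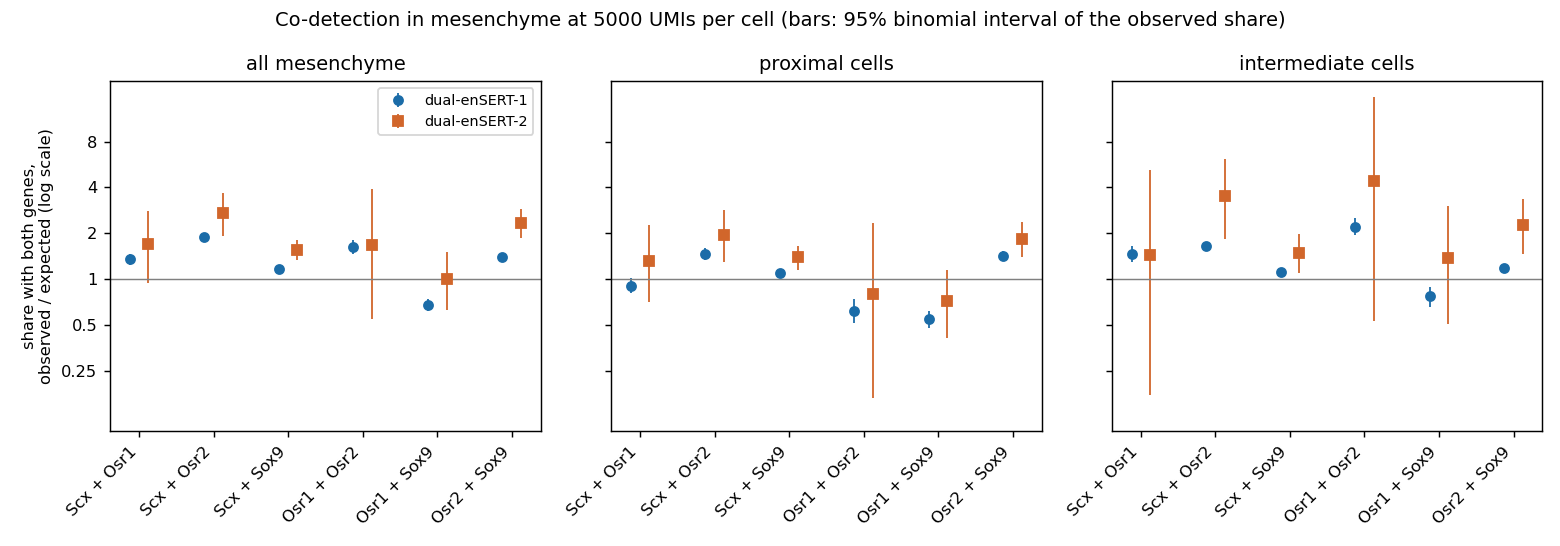
Ratio of the observed share of cells with both genes to the product of the single shares (vertical axis, log scale; line at 1) for 6 gene pairs (horizontal axis) in all mesenchyme-like, proximal and intermediate cells at 5000 UMIs, in dual-enSERT-1 (circles) and dual-enSERT-2 (squares). Bars are 95% binomial intervals of the observed share and some run past the axis. Scx with Osr2 lies above 1 in all 3 panels, and Osr1 with Osr2 in dual-enSERT-1 moves from 0.622 in proximal to 2.21 in intermediate cells.

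Cells with both Scx and Sox9, the combination known from attachment progenitors, were compared with cells having 1 or neither gene. In dual-enSERT-1 the 2194 cells with both held Osr2 at 134 CPM, against 84.9 with Scx only, 52.2 with Sox9 only and 15.5 with neither. In dual-enSERT-2 the 166 such cells held 51.3 CPM, against 17.2 with Scx only, 19.2 with Sox9 only and 3.90 with neither. Sox6, a cartilage partner of Sox9, went with Sox9 more than with Scx in the first library. It was 260 CPM with both and 243 CPM with Sox9 only, against 33.3 CPM with Scx only and 34.4 CPM with neither. In the second library it was 40.3 CPM with both, 25.02 with Sox9 only, 10.9 with Scx only and 19.7 with neither. Mkx, a later tendon factor, was higher where Sox9 was missing, at 25.8 CPM with Scx only against 11.4 CPM with both in dual-enSERT-1, beside 8.30 against 4.12 CPM, with overlapping intervals, in dual-enSERT-2. Osr1 ran likewise, at 50.02 against 26.95 CPM and 10.3 against 7.78 CPM, the latter with overlapping intervals. Mkx did not follow Scx itself, standing at 18.4 CPM with and 17.9 CPM without a Scx UMI in dual-enSERT-1, beside 6.62 and 6.61 CPM in dual-enSERT-2.

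Genes most enriched in the cells of a member in both libraries were ranked by the smaller of the log2 differences. For Scx (4000 and 401 cells) they were Osr2, Nrk, Ebf2, Plcl1, Cxcl12 and Zeb2, led by Osr2 at 1.82 and 1.87. For Osr2 (2161 and 135 cells) they were Nrk, Cxcl12, Scx, Runx1t1, Smoc1 and Zeb2. Cells with Osr1 (1325 and 83) were led by Meis1 and Meis2 at 2.15 and 2.53 in dual-enSERT-1, the genes that define proximal cells here, followed by Plcl1, Nr2f1, Rarb and Ror1. For Lum (588 and 50 cells) they were Galntl6, Foxp2, Foxp1, Bnc2, Gxylt2 and Nr2f1, and only Galntl6 passed 2-fold in both (2.02 and 1.86). Dcn, Kera and Tnmd had under 50 positive cells in dual-enSERT-2 and were not ranked.

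Few genes of the fixed lists followed the members. In cells with Scx, 2 of 9 measured muscle connective tissue genes were 2-fold higher in both libraries, Cxcl12 and Ebf2, beside 0.116% of all measured features, and 0 of 9 tendon and ligament genes were. No listed gene was lower, beside 0.135% of features. Cells with Osr1 had Tbx3 and Ebf2 of the muscle connective tissue list and the hindlimb gene Isl1 higher, beside 0.576% of features, and none lower (0.739%). With Osr2, Cxcl12 and Meox2 were higher (0.431% of features) and Tbx3 was lower (0.738%). Tbx3 therefore stood on opposite sides, at 1.11 and 1.39 on the log2 scale with Osr1 and at -2.33 and -1.68 with Osr2. None of the listed genes passed in both libraries in cells with Lum, where 0.106% of features were higher and 0.0384% lower.

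The proteoglycan genes coincided with each other and with Osr1 in dual-enSERT-1, and for Lum and Dcn the link was not particular to Osr1. Of 588 Lum cells 35.2% (31.3 to 39.2) had Osr1, against 9.02% of cells without Lum, and of 240 Dcn cells 35.0% had Osr1, against 9.74%. Osr2 was found in 35.5% of the Lum cells, against 15.7% without Lum, and in 22.9% of the Dcn cells, against 16.5%. For Scx the shares were 48.5% against 29.97% with Lum and 40.8% against 30.6% with Dcn. Lum was found in 74 of the 240 Dcn cells (30.8%, against 4.03% without Dcn) and in 17 of the 28 Kera cells (60.7%, 40.6 to 78.5, against 4.41%). Kera was 8.63 CPM in cells with a Lum UMI and 0.255 CPM in cells without. Sox9 was detected in 44.6% of Lum cells and 46.8% of others, so it did not divide them. In dual-enSERT-2, 0 of the 50 Lum cells had Osr1 (upper bound 7.11%, against 2.24% without Lum) and 1 had Dcn. Of the other 13 small leucine-rich proteoglycan genes listed, Bgn (biglycan) alone was measured in mesenchyme, and the neighbouring gene Epyc had 10 and 2 UMIs there.

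Over mesenchyme clusters, which were made without these genes, the members spread unevenly. Of 17 clusters in dual-enSERT-1, Scx was highest in cluster 9, led by Hgf, Smim41 and Meox2 (222 CPM), and in cluster 16, led by Nalf1, Pcsk2 and Lrrc7 (205 CPM). Cluster 16 also held the highest Osr2 (245 CPM), Lum (86.4 CPM) and Kera (6.58 CPM). Osr2 was almost as high (237 CPM) in cluster 17, which had the highest Sox9 (988 CPM). Osr1 peaked in clusters 1 (116 CPM) and 15 (108 CPM), and these differed in Lum, at 4.37 and 79.2 CPM. Cluster 15 held the most Dcn, 27.0 CPM. In dual-enSERT-2 a single cluster of 445 cells, led by Ebf2 and Cxcl12, had the highest Scx (80.6 CPM), Osr1 (16.4 CPM), Osr2 (50.3 CPM) and Sox9 (254 CPM) of 8.

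Scx and Osr2 went together over clusters, with Pearson's r of 0.96 and Spearman's rho of 0.96 over 17 clusters and 0.89 and 0.83 over 8, given as a description since clusters of 1 library share its cells and depth. The corresponding r was 0.59 and 0.80 for Scx with Osr1 and 0.84 and 0.79 for Osr1 with Dcn. For Lum with Kera it was 0.85 in dual-enSERT-1, and Kera had too few UMIs for a value in the other library. For Osr1 with Sox9 it was -0.14 and 0.51.

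**Figure D5:**
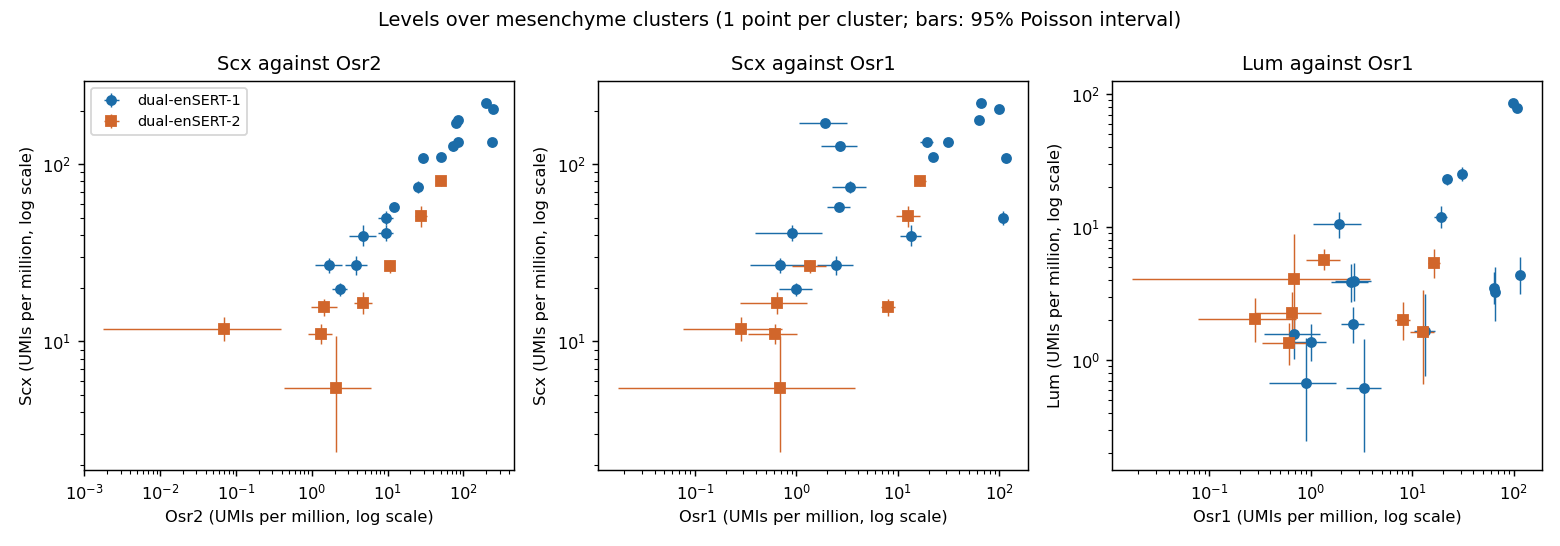
Levels in each mesenchyme cluster (1 point per cluster, CPM, both axes log scale, bars 95% Poisson intervals) of dual-enSERT-1 (circles) and dual-enSERT-2 (squares), for Scx against Osr2, Scx against Osr1 and Lum against Osr1. Scx follows Osr2 over both sets of clusters, while clusters of like Osr1 level, such as those at 116 and 108 CPM, differ in Lum (4.37 and 79.2 CPM).

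Between the libraries, Scx, Osr1, Osr2 and Lum were each at least 2-fold lower in dual-enSERT-2 mesenchyme, and no member was higher. These are the 4 members measured, while 3.03% of all measured features were that much lower, 0.684% were higher, and the median log2 difference was -0.03. The ratio of dual-enSERT-2 to dual-enSERT-1 was 0.280 (0.269 to 0.291) for Scx, 0.161 (0.147 to 0.177) for Osr1, 0.188 (0.176 to 0.200) for Osr2, 0.233 (0.207 to 0.261) for Lum and 0.370 (0.362 to 0.378) for Sox9. Without the clusters marked by Dcx the log2 difference was -1.61 in place of -1.80 for Scx, -2.18 in place of -2.38 for Osr1, -2.05 in place of -2.30 for Osr2 and -1.70 in place of -1.80 for Lum. Bop1, the gene around Scx, was higher in dual-enSERT-2, at 57.2 against 36.6 CPM.

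The mix of positions differed too, with 38.4% proximal and 15.4% distal cells in dual-enSERT-2 and 25.9% and 33.1% in dual-enSERT-1. Within each position the 3 factors were still lower in dual-enSERT-2. The ratio in proximal cells was 0.309 for Scx, 0.124 for Osr1 and 0.222 for Osr2, in intermediate cells 0.153, 0.0736 and 0.0848, and in distal cells 0.351, 0.323 and 0.262. Lum was lower in proximal cells (0.115, 0.0932 to 0.140), but in distal cells the ratio was 0.816 (0.595 to 1.10).

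Listed genes of cartilage and tendon were lower alongside. Of 9 measured cartilage genes 6 were at least 2-fold lower in dual-enSERT-2, among them Sox6 (-2.55 on the log2 scale), Col2a1 (-2.78) and Matn4 (-2.48), with a list median of -2.47. Of 10 measured tendon and ligament genes 4 were lower, among them Mkx (-1.32), Col1a1 (-1.45) and Col12a1 (-2.87), and of 10 muscle connective tissue genes 2 were, Meox2 (-1.70) and Ebf2 (-1.60). None of the 5 hindlimb identity genes passed in either direction, with a median of -0.06. Of 11 TGF-beta signal genes 2 were lower (list median -0.21), and none of 3 joint interzone genes passed (median -0.42). Over all measured features 3.03% were lower and 0.684% higher.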

How the data were processed

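The deposited matrices hold raw UMI counts per feature and barcode, made by the authors with Cell Ranger against mm39, per the submitters' processing notes; the feature list holds eGFP and mCherry. The file headers give Cell Ranger 7.0.1, while the submitters' processing notes give Cell Ranger 3.1.0 and Seurat 4. Barcodes with under 1000 genes, over 10% mitochondrial UMIs or a doublet call by Scrublet (1749 and 211) were removed. Each library was clustered separately with Scanpy 1.11.5 (2000 variable genes, Leiden resolution of 1), leaving out the members, Sox9, Shh and both reporters, and clusters were named by fixed markers.

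Levels are CPM (UMIs per 1000000 UMIs pooled over cells), with exact Poisson intervals. Shares use cells thinned to 5000 UMIs, with exact Clopper-Pearson intervals. Log2 differences use a pseudocount of 1 CPM. A feature was measured at 5 CPM or more in either group and passed at an absolute log2 of 1. No test was possible with 1 library per group. Named genes are the members, Sox9, the 6 features most enriched in each member's cells (at least 20 CPM and a log2 of 0.58 in both libraries) and up to 4 passing genes per list; Mkx and Sox6 in the cells split by Scx and Sox9, Bop1, Epyc and the myogenic genes were named after their values were seen. Members and lists were chosen with earlier results of these data known. The steps were tested on simulated data. Total UMIs were 298653282 and 184301053. Results of 1 listed gene are not reported here.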

Additional observations from a re-analysis of the deposited data

Results flagged for a closer look

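For 3 results the log2 value was above 1 in dual-enSERT-1 and slightly below 0 in dual-enSERT-2, and none of these differences was tested. In dual-enSERT-2 each ratio had an interval that includes 1, so no direction was shown there. Lum in proximal against distal cells was at 2.44 and -0.065 (ratio 0.941, 0.670 to 1.34), and the latter lay between -0.49 and 0.20 over the alternatives. Lum in cells with against without an Osr1 UMI was at 2.63 and -0.53 (ratio 0.589, 0.160 to 1.52, from 4 UMIs in the 83 Osr1 cells). Osr1 in cells with against without a Lum UMI was at 2.21 and -0.25 (ratio 0.807, 0.261 to 1.90, from 5 UMIs in the 50 Lum cells).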

How the results depend on the processing

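Each log2 value of a member that reached 1 in size was recomputed under the alternatives run for its comparison. This gave 278 recomputed values, counting each alternative separately, and 278 kept the direction of the reported value. With a minimum of 20 CPM, 0 members in place of 1 were lower in anterior cells of both libraries and 1 in place of 3 was higher in proximal cells, since fewer members are measured. Thinning to 10000 UMIs put 5 pairs in place of 3 above the expected share in both libraries. Listed genes lower in cells with Osr2 numbered 2 in place of 1 with at most 5% mitochondrial UMIs, without the 10% of cells with the most UMIs, with another random seed and without the clusters marked by Dcx, the last chosen after seeing the data. Those higher with Osr2 numbered 4 in place of 2 at 10000 UMIs. Listed genes lower in cells with Lum numbered 1 at most 5% mitochondrial UMIs and 2 at 2000 UMIs, in place of 0. The cause of these shifts in the lists was not tested. With only the extremes of the anterior-posterior index (41 and 7 anterior cells) Scx moved to 0.68 and -4.03 in log2. Depth limits the pairs in dual-enSERT-2, of which Osr1 with Osr2 rests on 5 cells, and Tnmd and Kera throughout. No paired analysis was possible because there is 1 library per group and the labels carry no replicate numbers.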
